A study of Homo sapiens with 6 samples.

Results

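snoRNA host genes are transcription units whose introns carry small nucleolar RNAs, and the 10 described here are SNHG1, SNHG3, SNHG5, SNHG6, SNHG7, SNHG8, SNHG12, GAS5, EPB41L4A-AS1 and ZFAS1. They were chosen by name, with earlier results of these data known. All 10 were among the 23368 gene symbols counted, 9 of them under the same symbol and ZFAS1 under its older symbol ZNFX1-AS1. RNA came from NB4, an established human acute promyelocytic leukemia line that carries the PML/RARα fusion, either not treated (n.t.) or exposed for 24 h to 10 µM maltonis, a synthetic molecule derived from maltol, with 3 libraries per group. Both groups are the same single line, and a change of level in every cell cannot be told apart from a shift in the mix of cell states in these bulk samples. Library totals ranged from 18492154 to 38205483 counts. At these depths a gene with 3 counts stands at 0.0785 to 0.162 CPM (counts scaled to a common library size, further on by the TMM method, which assumes that most genes do not change), a floor that covers counting error only.

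As background, a snoRNA guides the chemical modification or the cleavage of ribosomal RNA. Box C/D snoRNAs direct 2′-O-methylation, and box H/ACA snoRNAs direct pseudouridylation. Most human snoRNAs are cut out of the introns of a host transcript, while the spliced exons of the host leave the nucleus. The exons of hosts such as GAS5 hold little or no conserved reading frame, are read by ribosomes and are then destroyed by nonsense-mediated decay (NMD), so their level rises when translation or NMD is slowed. Several hosts begin with a 5′ terminal oligopyrimidine (5′TOP) tract, as the mRNAs of ribosomal proteins and translation factors do, and the level of the exons and the level of the snoRNAs are known to be set separately.

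The sequences of 4 snoRNAs in the introns of the hosts on which the results below turn are shown first, since they are the product that these genes carry. They come from the GRCh38 genome at the positions of GENCODE version 29, 5′ to 3′, and capitals mark the ACA box close to the 3′ end of the H/ACA snoRNAs SNORA24 and SNORA13 and the C box (TGATGA) and D box (CTGA) of the C/D snoRNAs, where a search found them. In SNORD99 capitals mark the D box.
SNORA24 of SNHG8 (chr4:118279190-118279320, plus strand): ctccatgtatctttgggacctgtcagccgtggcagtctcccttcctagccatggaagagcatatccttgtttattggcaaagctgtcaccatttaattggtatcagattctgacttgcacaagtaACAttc
SNORA13 of EPB41L4A-AS1 (chr5:112161485-112161617, plus strand): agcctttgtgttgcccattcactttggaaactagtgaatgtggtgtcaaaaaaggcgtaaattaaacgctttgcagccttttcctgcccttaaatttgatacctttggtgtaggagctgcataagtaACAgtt
SNORD12B of ZFAS1 (chr20:49280319-49280409, plus strand): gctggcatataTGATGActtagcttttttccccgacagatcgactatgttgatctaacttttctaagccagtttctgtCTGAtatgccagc
SNORD99 of SNHG12 (chr1:28578749-28578822, minus strand): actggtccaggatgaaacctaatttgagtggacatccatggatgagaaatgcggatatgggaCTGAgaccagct

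The start regions of 5 hosts are shown, 3 of which share a motif and a tract at the RefSeq start. The 2 hosts with the steepest rises, SNHG8 and EPB41L4A-AS1, had no match to these exact definitions. Each region runs from 50 bases before the start site annotated in RefSeq to 30 bases from it, 5′ to 3′ on GRCh38.p14. Capitals mark the motif TATATAAG and a pyrimidine tract that begins at the start site with C. SNHG8 holds the shorter letters tataag before its start and a run cctttc that ends on the start base. Its lack of a match therefore depends on the exact letters and start base used.
SNHG5 (chr6:85678704-85678783, minus strand): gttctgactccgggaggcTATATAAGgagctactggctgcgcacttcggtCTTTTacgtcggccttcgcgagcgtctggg
ZFAS1 (chr20:49278592-49278671, plus strand): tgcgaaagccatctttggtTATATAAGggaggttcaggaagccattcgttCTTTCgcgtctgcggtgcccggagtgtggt
SNHG12 (chr1:28581844-28581923, minus strand): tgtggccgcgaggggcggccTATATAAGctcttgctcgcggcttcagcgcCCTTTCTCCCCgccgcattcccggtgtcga
SNHG8 (chr4:118278712-118278791, plus strand): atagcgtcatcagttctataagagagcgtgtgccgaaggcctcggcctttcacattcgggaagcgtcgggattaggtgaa
EPB41L4A-AS1 (chr5:112160476-112160555, plus strand): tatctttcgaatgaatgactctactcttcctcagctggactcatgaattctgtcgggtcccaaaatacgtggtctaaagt

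RefSeq promoter sequences, which cover 250 bases before and 50 after the start, were found for 9 of the 10 genes. TATATAAG, searched on both strands after the sequences had been looked at, lay on the strand of the gene in SNHG5, SNHG12 and ZFAS1, 32, 30 and 31 bases before the start, and in 0.644% of all 35116 promoters. A C followed by at least 4 pyrimidines stood at the start site of the same 3 genes, of 4.07% of all promoters and of 47 of 78 ribosomal protein promoters (60.3%). In GAS5, 6 of the 29 transcripts of GENCODE shared a start with the letters CTTTTC, although its RefSeq start had no such tract. Such a tract also opened 3 of 5 GENCODE transcripts of SNHG6, which had no RefSeq promoter here, 1 of 3 of SNHG3, 1 of 5 of SNHG8 and 1 of 25 of SNHG1, and none of EPB41L4A-AS1 or SNHG7. The E-box CACGTG, the letters bound by MYC and MAX, occurred in 1 of the 9 promoters, that of SNHG7 at 122 bases before the start, against 7.26% of all promoters. These matches describe letters only. The tract at the RefSeq start was 5 bases long in SNHG5 and ZFAS1 and 11 in SNHG12. SNHG5 and ZFAS1 rose and SNHG12 fell with maltonis (below), and a link of these letters to the changes was not tested.

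After maltonis, 7 of the 10 hosts rose and 1 fell. EPB41L4A-AS1, SNHG8, SNHG6, GAS5, SNHG5, ZFAS1 and SNHG7 were higher, SNHG12 was lower, and SNHG1 and SNHG3 did not pass the test. Calls were made at an FDR under 0.01 by the edgeR quasi-likelihood test, adjusted after Benjamini-Hochberg over 13209 tested genes. In the same test 31.9% of all genes were higher, 32.1% were lower and 64% were called in either direction, so that a call as such was common in these libraries. The median log2 fold change of the 10 hosts was 0.42, and that of all genes tested was 0.01. All 10 had values that did not overlap between the 2 groups, SNHG1 and SNHG3 included, and so had 76.6% of all genes. Under total-count scaling the median of all genes moved to 0.13, and 57.3% of the calls were then increases in place of 49.8%.

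**Figure D1:**
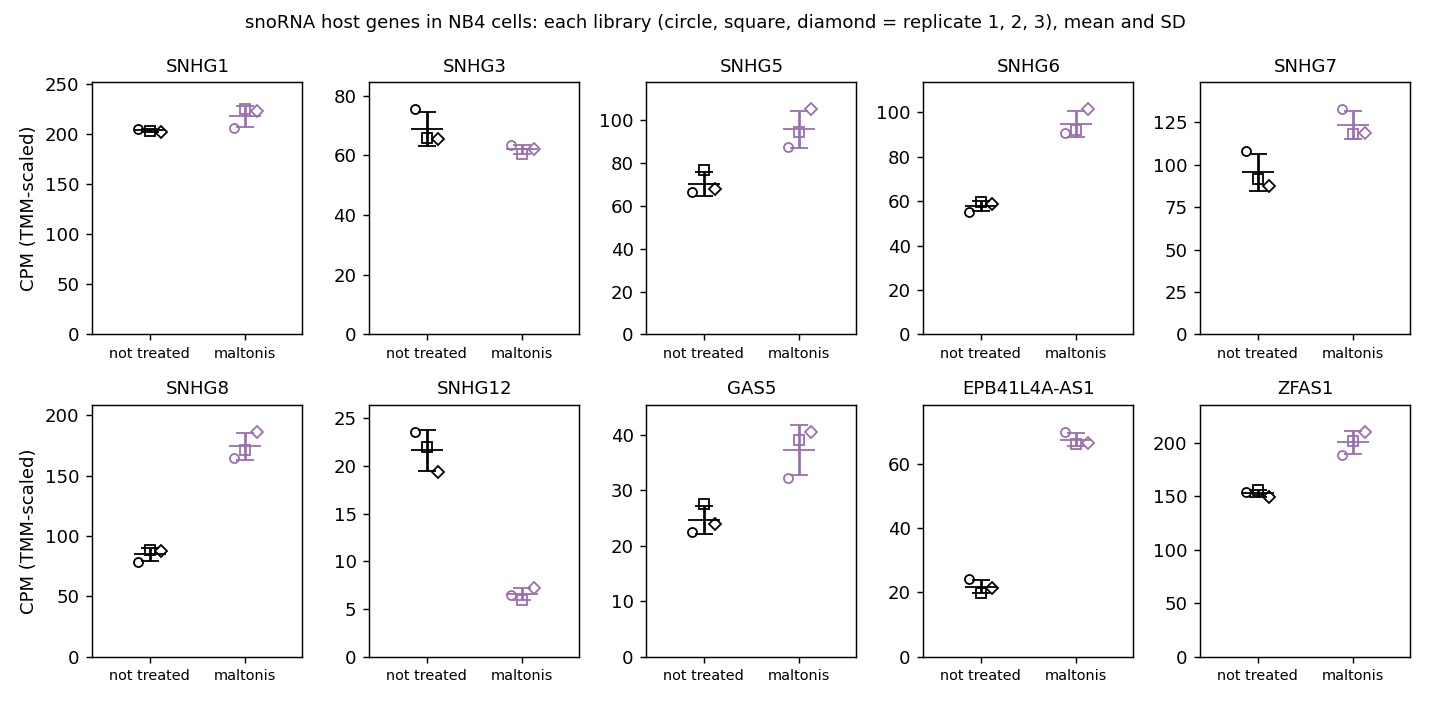
Expression of the 10 snoRNA host genes in each library, in TMM-scaled CPM on axes that start at 0, with n.t. libraries in black and maltonis libraries in purple; horizontal bars are means and error bars the SD of 3 libraries. EPB41L4A-AS1 rose from a mean of 21.8 to 67.5 CPM and SNHG12 fell from 21.6 to 6.54 CPM, while SNHG1 and SNHG3 did not pass the test.

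EPB41L4A-AS1, which hosts the H/ACA snoRNA SNORA13, showed the steepest rise of the 10. Its values were 24.0, 20.0 and 21.3 CPM in n.t. replicates 1, 2 and 3 and 69.9, 66.1 and 66.4 CPM in the maltonis replicates. Every maltonis library stood far above every n.t. library, a 3.11-fold rise with a log2 fold change of 1.64 ± 0.08 (SE) and an edgeR adjusted p of 4.2e-07.

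SNHG8 hosts SNORA24. Its 3 n.t. libraries gave 78.7, 88.1 and 88.0 CPM, and the maltonis libraries 164.4, 171.5 and 186.2 CPM. The groups were wide apart, and the rise was 2.05-fold (log2 1.03 ± 0.07 SE, edgeR adjusted p = 2.7e-06). SNHG6, the host of SNORD87, followed with 55.2, 59.4 and 58.9 CPM in n.t. cells against 90.8, 91.8 and 101.3 CPM, a 1.64-fold rise (log2 0.71 ± 0.07 SE, edgeR adjusted p = 1.7e-05).

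GAS5, named for its accumulation in growth-arrested cells and the host of 10 C/D snoRNAs in the list used here, read 22.6, 27.5 and 24.0 CPM in n.t. libraries and 32.2, 39.1 and 40.6 CPM in maltonis libraries. Replicate 1 was the lowest of its group in both conditions, and the rise was 1.51-fold (log2 0.59 ± 0.11 SE, edgeR adjusted p = 1.1e-03). SNHG5, the host of the U50 snoRNAs SNORD50A and SNORD50B, was at 66.5, 76.4 and 67.6 CPM and then at 87.4, 94.2 and 104.9 CPM. Its rise was 1.36-fold (log2 0.44 ± 0.09 SE, edgeR adjusted p = 1.5e-03), and without maltonis replicate 3, the highest library, it was 0.35 on the log2 scale with an edgeR adjusted p of 0.0110.

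ZFAS1, which carries SNORD12, SNORD12B and SNORD12C, gave 153.6, 155.6 and 148.8 CPM in n.t. cells, a narrow range, and 188.4, 201.9 and 210.0 CPM with maltonis. The 1.31-fold rise (log2 0.39 ± 0.06 SE, edgeR adjusted p = 3.4e-04) was small but above the spread of the libraries. SNHG7, the host of SNORA17 and SNORA43, was at 107.9, 91.4 and 87.6 CPM and at 132.7, 118.0 and 118.8 CPM, with replicate 1 the highest of its group in both conditions. Its 1.29-fold rise (log2 0.37 ± 0.09 SE, edgeR adjusted p = 5.4e-03) did not hold at the threshold when any 1 library other than n.t. replicate 1 was left out. The edgeR adjusted p was 0.0279 without n.t. replicate 2, 0.0195 without n.t. replicate 3, 0.0209 without maltonis replicate 1, 0.0131 without maltonis replicate 2 and 0.0134 without maltonis replicate 3, and the log2 fold change stayed between 0.29 and 0.45.

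SNHG12, which hosts SNORD99 and the H/ACA snoRNAs SNORA16A, SNORA44 and SNORA61, was the 1 host of the 10 that fell. Its n.t. libraries held 23.6, 22.0 and 19.3 CPM and its maltonis libraries 6.45, 5.97 and 7.21 CPM. The highest maltonis library stood well below the lowest n.t. library, a 3.30-fold decrease with a log2 fold change of -1.72 ± 0.11 (SE) and an edgeR adjusted p of 1.8e-06.

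SNHG1, the host of 8 C/D snoRNAs of the list, was the most counted of the 10 in both groups, with 204.9, 203.3 and 202.1 CPM in n.t. cells and 205.5, 224.5 and 222.9 CPM with maltonis. The log2 fold change was 0.10 with a 95% confidence interval from -0.03 to 0.23 (edgeR adjusted p = 0.147). Under total-count scaling it passed the threshold, with a log2 fold change of 0.22 and an edgeR adjusted p of 0.00696, which is to be read against the shift of all genes by that scaling. SNHG3, the host of SNORA73A and SNORA73B, gave 75.4, 65.7 and 65.6 CPM and then 63.6, 60.6 and 62.1 CPM. Its log2 fold change was -0.15, with a 95% confidence interval from -0.31 to 0.02 (edgeR adjusted p = 0.0926). In simulated counts with the same depth, 28 of 86 genes with a log2 change of 0.5 were recovered (32.6%) and 105 of 112 with 1.5 (93.8%). Those genes had all levels of expression, and far fewer genes changed there than in the data. These shares therefore do not tell how often a change in SNHG1 or SNHG3 would have been missed.

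The names of the libraries carry a code of unstated meaning that sets replicate 1 of each group apart from replicates 2 and 3. All 8 called hosts moved in the same direction on both sides of this code. The log2 difference was 1.54 in replicate 1 and 1.68 in the other libraries for EPB41L4A-AS1, 1.06 and 1.02 for SNHG8, 0.72 and 0.71 for SNHG6 and 0.51 and 0.63 for GAS5. It was 0.40 and 0.47 for SNHG5, 0.30 and 0.44 for ZFAS1, 0.30 and 0.40 for SNHG7 and -1.87 and -1.65 for SNHG12. For the uncalled genes it was 0.00 and 0.14 in SNHG1 and -0.25 and -0.10 in SNHG3.

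By the criterion of the study, a log2 fold change beyond 1.32 (2.5-fold), an FDR under 0.01 and an RPKM (CPM divided by the transcript length in kilobases) above 10 in the group with the higher level, EPB41L4A-AS1 was upregulated and SNHG12 downregulated. Applied to the fit and exon lengths used here, the same criterion called 252 genes up (1.91%) and 526 down (3.98%). These are not the counts that the study reported, and symbols without a length could not pass. Without the RPKM limit the criterion called 9.96% of genes up and 10.4% down, again with 1 of the 10 hosts on each side. SNHG12 sat at the edge of the expression limit, with n.t. libraries between 9.06 and 11.1 RPKM for the exons linked to RefSeq. With the exons of the basic transcript set of GENCODE its n.t. mean was 8.50 RPKM, also under the limit. With the length of all annotated exons its mean was 5.07 RPKM, and it was then not among the 3.19% of genes called down.

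Compared per length, with the exons linked to RefSeq, SNHG5 was the most abundant of the 10 in n.t. cells at 163 ± 12.6 RPKM (SD, n = 3), followed by ZFAS1 at 148 ± 3.39, SNHG1 at 136 ± 0.956, SNHG8 at 126 ± 8.05 and SNHG6 at 74.9 ± 2.97 RPKM. SNHG7 came next at 38.3 ± 4.34, and GAS5 at 31.5 ± 3.24 and SNHG3 at 31.3 ± 2.56 RPKM overlapped. SNHG12 at 10.1 ± 1.01 and EPB41L4A-AS1 at 7.33 ± 0.697 RPKM were the lowest. The levels covered the 44.8 to the 96.9 percentile of 12431 tested genes with a length. After maltonis SNHG8 was the first at 259 ± 16.6 RPKM, the ranges of SNHG5 and ZFAS1 and those of SNHG7 and GAS5 overlapped, and SNHG12 was the last at 3.07 ± 0.293 RPKM. This order depends on the length: with all annotated exons SNHG8 was already first in n.t. cells at 92.0 RPKM and SNHG5 was at 25.0 RPKM, below SNHG6 at 46.4 RPKM.

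Summed over the 10 genes, expression was 812, 809 and 783 CPM in n.t. libraries and 1041, 1074 and 1120 CPM in maltonis libraries. The make-up of that sum shifted. SNHG1 made up 25.1% to 25.8% of the counts in n.t. libraries and 19.7% to 20.9% in maltonis libraries, SNHG8 went from 9.69% to 11.2% up to 15.8% to 16.6%, and EPB41L4A-AS1 from 2.47% to 2.96% up to 5.93% to 6.71%. SNHG12 went from 2.47% to 2.91% down to 0.556% to 0.643%, and ZFAS1 stayed at 18.1% to 19.2% in all 6 libraries.

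**Figure D2:**
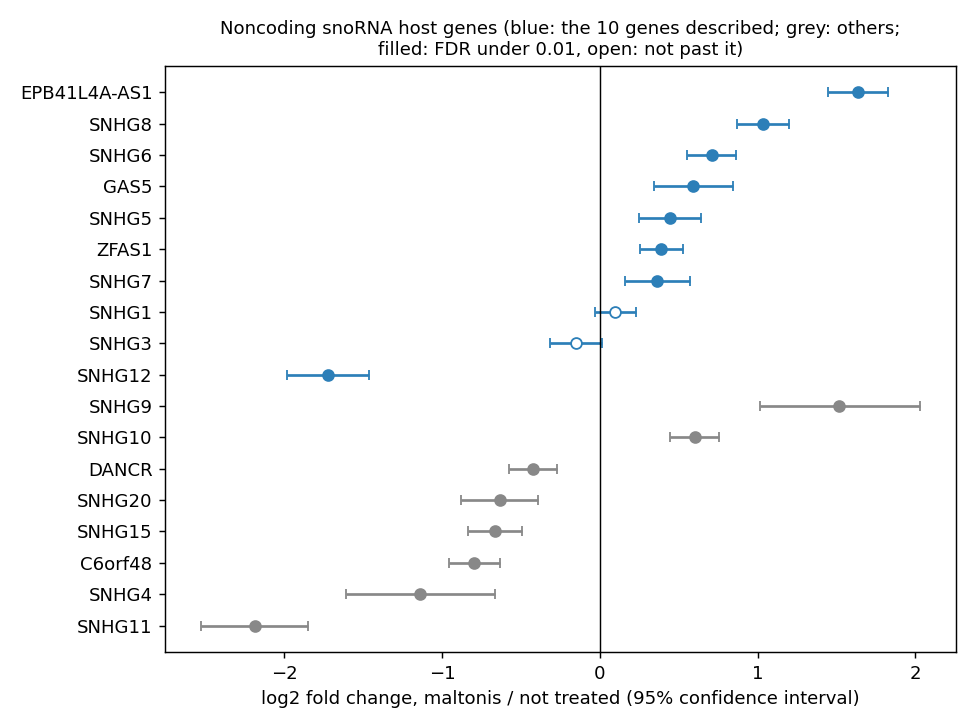
Log2 fold change of maltonis against n.t. libraries (horizontal axis) with its 95% confidence interval, for the 10 hosts in blue and 8 other noncoding snoRNA hosts in grey; filled points passed an FDR under 0.01. The 10 hosts run from -1.72 (SNHG12) to 1.64 (EPB41L4A-AS1) and the other hosts from -2.19 (SNHG11) to 1.52 (SNHG9).

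Other noncoding snoRNA hosts moved in both directions. Of 20 further hosts named, 8 were tested, of which 2 rose (25%) and 6 fell (75%), against 31.9% and 32.1% of all genes. Their median log2 fold change was -0.65. SNHG9 rose by 1.52 and SNHG10 by 0.60, both on the log2 scale. SNHG11 fell by 2.19, SNHG4 by 1.14 and C6orf48, also known as SNHG32, by 0.79. SNHG9 was low in counts, at a mean of 1.90 ± 0.515 CPM (SD, n = 3) in n.t. cells and 5.55 ± 1.19 CPM in treated cells. Of the rest, 11 names had no symbol or synonym among those counted here and 1 had too few counts for the test. Among 28 tested protein-coding snoRNA hosts outside the ribosomal protein genes, 2 rose and 16 fell (57.1%, against 32.1% of all genes), with a median of -0.41. The nucleolar GTPase gene GNL3, the mitochondrial chaperone HSPA9 and the translation factor EIF4G2 fell by 1.22, 1.17 and 1.07, and the elongation factor EEF2 and the chaperonin subunit TCP1 rose by 0.67 and 0.55.

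Genes of the proteins that bind snoRNAs or assemble the particle fell in most cases. Of 19 snoRNP and assembly genes tested, 14 fell (73.7%) and 0 rose in edgeR’s test, against 32.1% and 31.9% of all genes. There were 0 increases also at an unadjusted p under 0.05 and 0 with DESeq2, and the median log2 fold change was -0.68. ZNHIT6, a C/D assembly factor, fell by 2.64 on the log2 scale, from a mean of 37.4 to 6.04 CPM. RUVBL1, an ATPase of the assembly complex, fell by 1.26 and its partner RPAP3 by 1.24. Of these genes, 3 (DKC1, NOP56 and NOP58) are themselves snoRNA hosts and belong to both lists.

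Genes linked to NMD moved in both directions. Of 20 NMD factors 7 rose (35%) and 3 fell (15%), against 31.9% and 32.1% of all genes, with a median of 0.10. UPF3B rose by 1.45, SMG9 by 0.99 and UPF3A by 0.78, and NBAS fell by 2.20, CASC3 by 0.75 and RNPS1 by 0.37. Of 16 genes with a transcript known to be cleared by NMD, 6 rose (37.5%) and 7 fell (43.8%), set against the same shares of all genes. Their median of -0.11 turned to 0.013 under total-count scaling. They are called NMD-cleared transcripts further on, but counts per gene also hold the other transcripts of a gene. A fall or rise of the gene is therefore not a measure of the cleared transcript alone. DDIT3, UPF3B and GADD45B rose by 1.50, 1.45 and 1.05, while UPP1, ATF3 and SRSF3 fell by 1.58, 0.90 and 0.84; DDIT3, ATF3 and GADD45B are also stress-induced genes, and UPF3B stands in both lists. Of 16 genes with a 5′TOP, mostly translation factors and called so further on, 5 rose (31.2%, against 31.9% of all genes). EIF3F, EEF2 and TPT1 rose the most, by 0.86, 0.67 and 0.52. HNRNPA1, NAP1L1, TPT1 and FAU in this list are not translation factors. FAU also stands among the ribosomal protein genes, and EEF1B2 and EEF2 also stand among the protein-coding hosts. No member fell at an FDR under 0.01 with edgeR or with DESeq2 (2 were lower at an unadjusted p under 0.05), and the median was 0.07.

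Ribosomal protein genes, the largest 5′TOP family, were centred close to 0, with a median of 0.05 over 77 tested genes. Of these, 8 rose (10.4%) and 6 fell (7.79%), against 31.9% and 32.1% of all genes. RPS26, RPS20 and RPL13A rose by 1.24, 0.59 and 0.53, and RPL41, RPL36A and RPL29 fell by 1.36, 1.00 and 0.72. Many of these genes have near-identical processed copies, and reads could have been split among them in the counting, so single members are uncertain. With total-count scaling 18 of them rose.

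**Figure D3:**
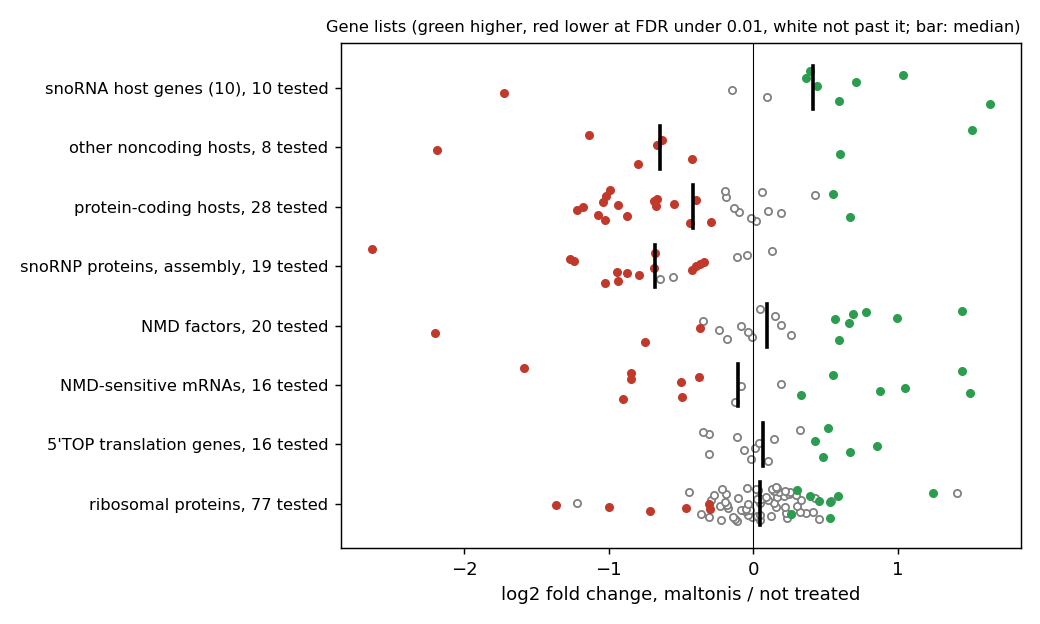
Log2 fold change of maltonis against n.t. (horizontal axis) for each tested gene of 8 lists; green and red points rose and fell at an FDR under 0.01, white points did not pass it, and black bars are medians. The median is 0.42 for the 10 hosts, -0.65 for the other noncoding hosts, -0.68 for snoRNP genes and 0.05 for ribosomal protein genes.

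Set against the summed counts of the ribosomal protein genes of the same library, a ratio that does not depend on scaling between libraries, 7 of the 10 hosts had groups that did not overlap. In CPM 76.6% of all genes had such groups, and the share of all genes for this ratio was not computed. The log2 ratio was higher with maltonis by 1.56 in EPB41L4A-AS1, 0.96 in SNHG8, 0.63 in SNHG6, 0.52 in GAS5, 0.37 in SNHG5 and 0.31 in ZFAS1, and lower by a difference of -1.80 in SNHG12. Each of the 7 had a p of 0.1 in the two-sided exact permutation test, the smallest that 3 against 3 libraries allow, so that no member can pass 0.05 here. SNHG7 differed by 0.29 (exact permutation p = 0.2), SNHG1 by 0.02 (exact permutation p = 0.6) and SNHG3 by -0.22 (exact permutation p = 0.2), with overlapping groups. Against the summed 5′TOP translation factor genes in place of ribosomal protein genes, SNHG5 (0.12, exact permutation p = 0.3), ZFAS1 (0.064, exact permutation p = 0.3) and GAS5 (0.27, exact permutation p = 0.2) no longer reached the smallest p, and SNHG1 (-0.23) and SNHG3 (-0.47) reached it as lower, with an exact permutation p of 0.1 each. That sum was itself at 10661 to 11658 CPM in n.t. libraries and 13607 to 13962 CPM in maltonis libraries. EEF2 alone went from a mean of 3046 to 4859 CPM in it, while the median log2 fold change of its 16 genes was 0.07, with 10 of them above 0. The differences against this sum therefore rest in large part on EEF2. The summed ribosomal protein genes were at 33392 to 35746 CPM in n.t. libraries and 33628 to 38520 CPM in maltonis libraries.

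Genes beside the hosts were compared because several hosts share a start region or overlap with a neighbour, and whether the counting used the strand is not given in the sources used here. In GENCODE version 29 (GRCh38), SNHG1 and SLC3A2, an amino acid transporter subunit, start 188 bases apart on opposite strands. SLC3A2 fell by 0.98 on the log2 scale, from 392.3, 382.4 and 353.5 CPM to 185.9, 189.9 and 194.4 CPM, while SNHG1 was at 0.10. GAS5 and ZBTB37 are divergent and overlap by 801 bases, and ZFAS1 and ZNFX1 by 249 bases. ZBTB37 rose by 1.67, from a mean of 5.29 to 16.8 CPM, and ZNFX1, a helicase of the antiviral response, rose by 0.69, so that both hosts and both neighbours rose. Reads in these overlaps cannot be assigned to 1 gene without the strand.

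SNHG12 and TRNAU1AP, a gene of selenocysteine tRNA function, lie tail to tail with an overlap of 8 bases and moved in opposite directions. TRNAU1AP was at 16.6, 14.0 and 13.4 CPM in n.t. libraries and 40.4, 39.8 and 39.2 CPM in maltonis libraries, a rise of 1.45 on the log2 scale against the fall of SNHG12 by 1.72. EPB41L4A-AS1 lies inside the span of EPB41L4A on the other strand, and EPB41L4A did not pass the test, at a log2 fold change of -0.24 (edgeR adjusted p = 0.0647) and means of 6.89 and 5.85 CPM. SNHG3 lies wholly within the annotated span of RCC1 on the same strand, so its counts are uncertain; RCC1 was at -0.12 and SNHG3 at -0.15, neither past the test. Of the more distant neighbours, SYNCRIP beside SNHG5 fell by 1.00, WDR74 beside SNHG1 fell by 0.53, LCN10 beside SNHG7 rose by 1.66 from a mean of 0.394 CPM, and PRSS12 beside SNHG8 was at 0.22 without passing the test. Of 10 neighbours tested, 4 rose (40%) and 3 fell (30%), near the 31.9% and 32.1% of all genes. The directions of a host and its neighbour are to be read against these shares.

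**Figure D4:**
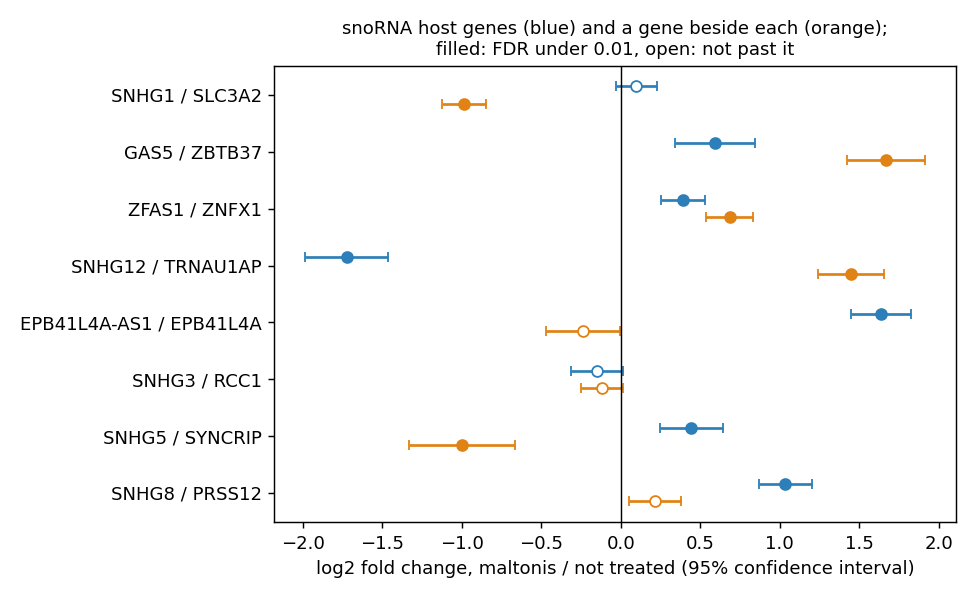
Log2 fold change of maltonis against n.t. (horizontal axis) with its 95% confidence interval for 8 hosts (blue) and a gene beside each (orange); filled points passed an FDR under 0.01. SNHG12 at -1.72 and TRNAU1AP at 1.45 lie on opposite sides of 0, and GAS5 with ZBTB37 and ZFAS1 with ZNFX1 lie on the same side.

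The hosted snoRNAs themselves were barely covered. Of 34 named snoRNAs, 25 of the C/D and 9 of the H/ACA class, 32 had a symbol among those counted, 7 had no count in any library, and together they held 1114 counts over all 6 libraries. In GENCODE 19 were found, and each of the 19 lies in an intron of its host on the same strand. All snoRNA and Cajal body RNA symbols took 0.0793% to 0.0930% of the counts in n.t. libraries and 0.101% to 0.129% in maltonis libraries. SNORD99 of SNHG12 had no count in any library.

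SNORA24 was the only hosted snoRNA with at least 10 counts in every library, with 30, 139 and 129 counts in n.t. libraries and 43, 121 and 137 counts in maltonis libraries. As a share of the counts of its host SNHG8 this was 2.03%, 4.36% and 4.42% without treatment and 1.35%, 2.10% and 2.61% with maltonis, so that the ranges overlapped. The log2 ratio differed by -0.80 (two-sided exact permutation p = 0.3), -0.59 in replicate 1 and -0.90 in the other replicates. By itself SNORA24 had a log2 fold change of 0.16 (95% confidence interval -0.60 to 0.93) while SNHG8 rose by 1.03. Of 5 hosted snoRNAs tested, 0 passed with edgeR’s quasi-likelihood test, 0 at an unadjusted p under 0.05 and 0 with DESeq2.

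The labelled cell type was checked on 7 promyelocytic genes, all of which were detected. The marker values are counts divided by the library total, without the TMM factor used for the hosts. The summed level of the 7 genes was 13790 to 15980 CPM in n.t. libraries and 9110 to 9647 CPM in maltonis libraries, and most of it was MPO, the myeloperoxidase of primary granules. The genes did not share 1 direction: MPO, MYB, CEBPE and CD33 were lower in every maltonis library, while the granule protease genes CTSG, at 99.2 to 109.3 CPM without and 560.3 to 602.7 CPM with maltonis, and PRTN3, at 425.5 to 565.7 and 616.8 to 938.1 CPM, and AZU1, at 39.9 to 46.6 and 62.4 to 74.7 CPM, were higher. Of 9 markers of other cell types the summed level was 70.4 to 73.1 CPM in n.t. libraries and 44.3 to 51.4 CPM in maltonis libraries. The globin gene HBB was at 0 in every library and CD3E reached at most 2 counts, while CD3D was at 41.2 to 43.4 CPM without and 15.6 to 16.4 CPM with maltonis. The epithelial marker EPCAM was also detected, at 15.2 to 17.1 CPM without and 10.7 to 13.3 CPM with maltonis. PECAM1, placed in this list as an endothelial marker, went against the sum, at 7.27 to 12.9 CPM without and 16.6 to 21.1 CPM with maltonis. The part of these differences in the values of the hosts was not tested.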

How the data were processed

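The authors deposited 1 table of whole-number HTSeq counts per gene symbol for each of 6 libraries of ribosomal-RNA-depleted, stranded total RNA, without normalization; the submitters’ processing notes name TopHat, Bowtie2, HTSeq and hg19. The annotation and the strand setting of the counting are not given in the sources used here. Groups and replicate numbers come from the labels, and the study calls the replicates biological. All libraries were fitted together in R 4.3.3 with edgeR 4.0.16 (TMM, filterByExpr, quasi-likelihood test, no covariate), as the study used edgeR, with Benjamini-Hochberg adjustment over 13209 of 23368 symbols; every adjusted p comes from this fit unless another scaling or a left-out library is named beside it. The SE is the size of the coefficient over the root of the test statistic. The test was first run on simulated counts. RPKM used exon lengths of GENCODE version 29 (GRCh38), another build than that of the files. Replicate pairs differed by more than sampling noise (chi-square per degree of freedom 4.15 to 33.1).

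The 10 hosts, the gene lists and the tests were chosen with earlier results of these data known. Genes named are the hosts, up to 3 rising and 3 falling called genes per list with the largest changes, all tested neighbours, and every hosted snoRNA with at least 10 counts in every library; SNORD99 and the named markers were added after their values were seen. Alternatives covered scaling, DESeq2 1.42.0 and edgeR’s likelihood ratio test, the filter, the replicate number, the library code, each library left out, the comparator and the transcript length. Figures used Python 3.11.15 and matplotlib 3.10.9.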

Additional observations from a re-analysis of the deposited data

How the results depend on the processing

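No called gene changed direction under the alternatives run, while the medians of NMD-cleared transcripts and of neighbours changed sign as given below. The 7 increases and 1 decrease among the hosts were counted alike with DESeq2, DESeq2 size factors, the likelihood ratio test, upper-quartile scaling, both other filters, the replicate block, the library code and replicates 2 and 3 alone, and were 8 and 1 under total counts, where SNHG1 passed at 0.22. Leaving out 1 library gave 5 to 7 increases; SNHG7 lay between 0.29 and 0.45 and SNHG5 between 0.35 and 0.50, each below the threshold without the libraries named above. The replicate numbers were not taken as pairs: the deviations of same-numbered libraries correlated at 0.301, 0.0852 and 0.161, and not every library correlated best with its own number. With the replicate block 4602 genes rose and 4620 fell in place of 4213 and 4239, and the median of the hosts was 0.42.

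Total-count scaling gave medians of 0.54 for the hosts, -0.30 for coding hosts, 0.22 for NMD factors, 0.013 for NMD-cleared transcripts and 0.17 for neighbours, with 1 snoRNP gene and 18 ribosomal protein genes higher. Upper-quartile scaling, which put the median of all genes at 0.10 and 55.3% of calls on the higher side, gave 0.50, -0.33 and 0.14 for hosts, coding hosts and neighbours, with 1 snoRNP gene and 16 ribosomal protein genes higher. Without the filter the median of the neighbours was -0.12. Coding hosts that rose were 4 with the replicate block, 4 with the library code and 4 in replicates 2 and 3 alone, and 5′TOP factors that fell were 2, 3 and 3. Ribosomal protein genes that rose and fell were 21 and 12 with the block and 23 and 13 with the code, and 24 rose in replicates 2 and 3 alone, where the medians of NMD-cleared transcripts and neighbours were -0.24 and 0.095. Over single left-out libraries, falling NMD factors numbered 3 to 5, falling 5′TOP factors 0 to 3 and rising ribosomal protein genes 4 to 8, and the medians of NMD-cleared transcripts and neighbours ran from -0.22 to 0.035 and from -0.14 to 0.058. The cause of these differences was not tested.

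Against summed 5′TOP translation factor genes in place of ribosomal protein genes, the log2 differences were -0.23 for SNHG1, -0.47 for SNHG3, 0.12 for SNHG5, 0.38 for SNHG6, 0.043 for SNHG7, 0.71 for SNHG8, -2.05 for SNHG12, 0.27 for GAS5, 1.31 for EPB41L4A-AS1 and 0.064 for ZFAS1. Without the RPKM limit the 2.5-fold criterion called 1316 genes up and 1369 down. With the RPKM limit and the length of all annotated exons, 0 of the 10 hosts were called lower. Of the hosted snoRNAs, 1 had at least 10 counts in every library, and why the others had fewer was not tested.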
